A study of Mus musculus with 200 samples.

Results

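The 37 genes described here encode the enzymes that copy DNA and supply its building blocks. They were taken by symbol from a fixed list of replication genes, and all 37 were found among the 22033 genes of the deposited tables. By role they comprise the 6 subunits of the MCM helicase, 5 genes of helicase loading and activation, 3 genes of the primase and polymerase alpha, 5 subunits of polymerases delta and epsilon, the sliding clamp with the 5 subunits of its loader, the 3 subunits of the single-strand binding protein, 3 genes that join or untangle the new strands, and 6 genes of nucleotide supply and uracil removal. The rule itself uses no measured value.

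Gene expression was profiled by 3SEQ, which sequences the 3′ ends of polyadenylated RNA, in single whole mouse embryos freed of extra-embryonic tissue at E11.5. Both inbred parental strains, C57BL6/J (B6) and Castaneus (Cast), were untreated, and the mother is named first in each cross. The F1 embryos were 8 of the cross B6 × Cast (litters 3 and 5) and 8 of the cross Cast × B6 (litters 1 and 2). The N2 embryos used here came from backcrosses to B6: 89 were carried by B6 females mated to F1 males (B6 × F1) and 65 by F1 females mated to B6 males (F1 × B6). All F1 parents of the backcross had a B6 mother and a Cast father, so every N2 embryo was either homozygous for B6 or heterozygous at each autosomal gene, and none was homozygous for Cast. Between 15703888 and 38234229 reads were counted on genes per F1 embryo and between 245220 and 5370322 per N2 embryo, with a median of 2297773 in N2. Levels are given as RPM, the reads of a gene scaled to a common total per embryo. Somite number, the count of body segments that serves as the measure of developmental age, was known for 147 N2 embryos and ran from 42 to 57 with a median of 49. In whole embryos a lower level can come from fewer cells that express a gene or from less RNA in each of them, and these cannot be told apart. Of 9 markers of placenta and decidua, 1 (*Dcn*) reached a mean of 5 RPM in N2.

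Replication starts at origins, where Cdc6 and Cdt1 load the ring of Mcm2 to Mcm7 onto DNA in G1 phase. Mcm10 and the GINS complex (Gins1, Gins2) help to turn this ring into the moving helicase. Primase (Prim1, Prim2) and polymerase alpha lay down primers, polymerase epsilon extends the leading strand and polymerase delta the lagging strand. Pcna is the clamp that holds the polymerases on DNA and Rfc1 to Rfc5 form the loader that closes it. Transcription of many of these genes peaks around the start of S phase under E2F factors, and several of them are in common use as markers of dividing cells.

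The proximal promoters of the genes were read for the sequence that E2F factors bind, since a shared promoter word is a feature that the list of names did not use. RefSeq promoters of the GRCm38.p6 assembly, 250 bases before to 50 bases after each start site, were found for 31 of the 37 genes. Those of *Mcm4*, *Gins1*, *Gins2*, *Prim2*, *Pole* and *Rfc2* were not analysed here. The E2F words searched on both strands were TTTCCCGC, TTTGGCGC, TTTGCCGC and TTTCGCGC, which can overlap one another. At least 1 of them stood in the promoters of 11 of 31 genes (35.5%), namely *Mcm3*, *Mcm5*, *Mcm6*, *Mcm7*, *Cdc6*, *Cdt1*, *Pold1*, *Pold3*, *Pole2*, *Rfc3* and *Lig1*, against 2.61% of the 27025 genes with a promoter and 5.23% of the 7204 of these that were tested for somite number. The CCAAT word stood in 54.8% of the 31, in 41.1% of all 27025 and in 43.7% of the 7204. The word TTTGAA, known from genes of late cell cycle, stood in 12.9%, 20.2% and 13.3% of these. A match describes the letters only.

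In 5 of the 11 genes an E2F word lies before the start site, and the 60 bases around it are shown 5′ to 3′ on the strand of the gene, with the E2F words in capitals. The windows are chr8:75109334-75109393 (*Mcm5*, plus strand), chr1:128359719-128359778 (*Mcm6*, minus), chr5:138172015-138172074 (*Mcm7*, minus), chr11:98907987-98908046 (*Cdc6*, plus) and chr5:151651209-151651268 (*Rfc3*, minus), all in GRCm38.p6.
Mcm5: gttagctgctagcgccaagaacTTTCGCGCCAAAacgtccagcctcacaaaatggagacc
Mcm6: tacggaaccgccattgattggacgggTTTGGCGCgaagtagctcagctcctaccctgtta
Mcm7: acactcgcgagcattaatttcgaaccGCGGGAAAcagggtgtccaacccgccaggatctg
Cdc6: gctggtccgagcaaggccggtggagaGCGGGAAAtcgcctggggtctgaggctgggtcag
Rfc3: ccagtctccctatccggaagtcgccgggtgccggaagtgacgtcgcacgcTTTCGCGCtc

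The run of capitals in the *Mcm5* window holds 2 overlapping words, 1 on each strand. The *Mcm7* and *Cdc6* windows hold the same word on the opposite strand.

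The N2 libraries were sequenced in 14 lanes on 2 flowcells, and the level of many replication genes followed the lane. Of the variance of log2(RPM + 0.5), a median of 62.4% lay between lanes and mothers for the 37 genes, against 57.9% over all genes tested, and 13 of the 37 (35.1%) lay above 70.8%, the upper quartile of all genes. The share was highest for *Prim1* (91.6%), *Rfc4* (89.3%) and *Pcna* (85.4%), and lowest for *Pola2* (27.3%), *Rpa2* (34.5%) and *Mcm7* (35.7%). *Prim1*, the catalytic subunit of primase (mm9 chr10:127452228-127467093), had lane medians between 118 and 158 RPM in lanes K to N, 32.8 RPM in lane J and between 2.95 and 9.76 RPM in lanes A to I. *Rfc4*, a subunit of the clamp loader (chr16:23114016-23127810), had medians of 125 to 187 RPM in lanes K to N, 10.3 in lane J and 0.742 to 8.81 in the others. *Pcna*, the clamp itself (chr2:132074898-132079050), had 27.2 to 71.2 RPM in lanes K to N, 6.89 in lane J and 0.862 to 1.82 elsewhere. These 3 genes were thus high in the same 4 lanes, and each lane of K to N stood above every lane of A to I in all 3.

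*Mcm2*, a helicase subunit (chr6:88833469-88848774), showed another lane pattern, with medians of 481 to 530 RPM in lanes D to G and 25.6 to 126 RPM in the other 10 lanes. *Dut*, which removes dUTP from the nucleotide pool (chr2:125072926-125084344), was also high in lanes D to G (227 to 374 RPM) and ranged from 16.0 to 73.3 RPM in the other lanes. *Lig1*, the ligase that seals Okazaki fragments (chr7:13862632-13896782), varied far less, from 413 to 557 RPM in lanes J to N and from 878 to 1088 RPM in lanes A to I. In all, 10 litters were split over lanes. Of F1 × B6 litter 3, 5 embryos in lane D had *Mcm2* levels of 446 to 511 RPM and *Prim1* levels of 3.35 to 7.47 RPM, while the 2 embryos in lane L had 50.2 and 108 RPM of *Mcm2* and 69.5 and 178 RPM of *Prim1*. In B6 × F1 litter 13 the 4 embryos in lane H had 3.33 to 5.46 RPM of *Prim1* and the 2 in lane K had 131 and 133 RPM. The *Prim1* level of littermates thus went with the lane in both litters. *Mcm2* also varied within a lane: 2 littermates of F1 × B6 litter 9 in lane C had 31.2 and 361 RPM, beside 455 to 481 RPM in their 3 littermates in lane G, and those of litter 13 in lane H ran from 12.7 to 313 RPM. What in the lanes moved with these genes was not tested. The main tests of level among N2 embryos below were therefore made within lane and mother, or over lanes. RPM levels given below by stage, by mother or by genotype are pooled over lanes, so they also carry the lane differences.

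**Figure D1:**
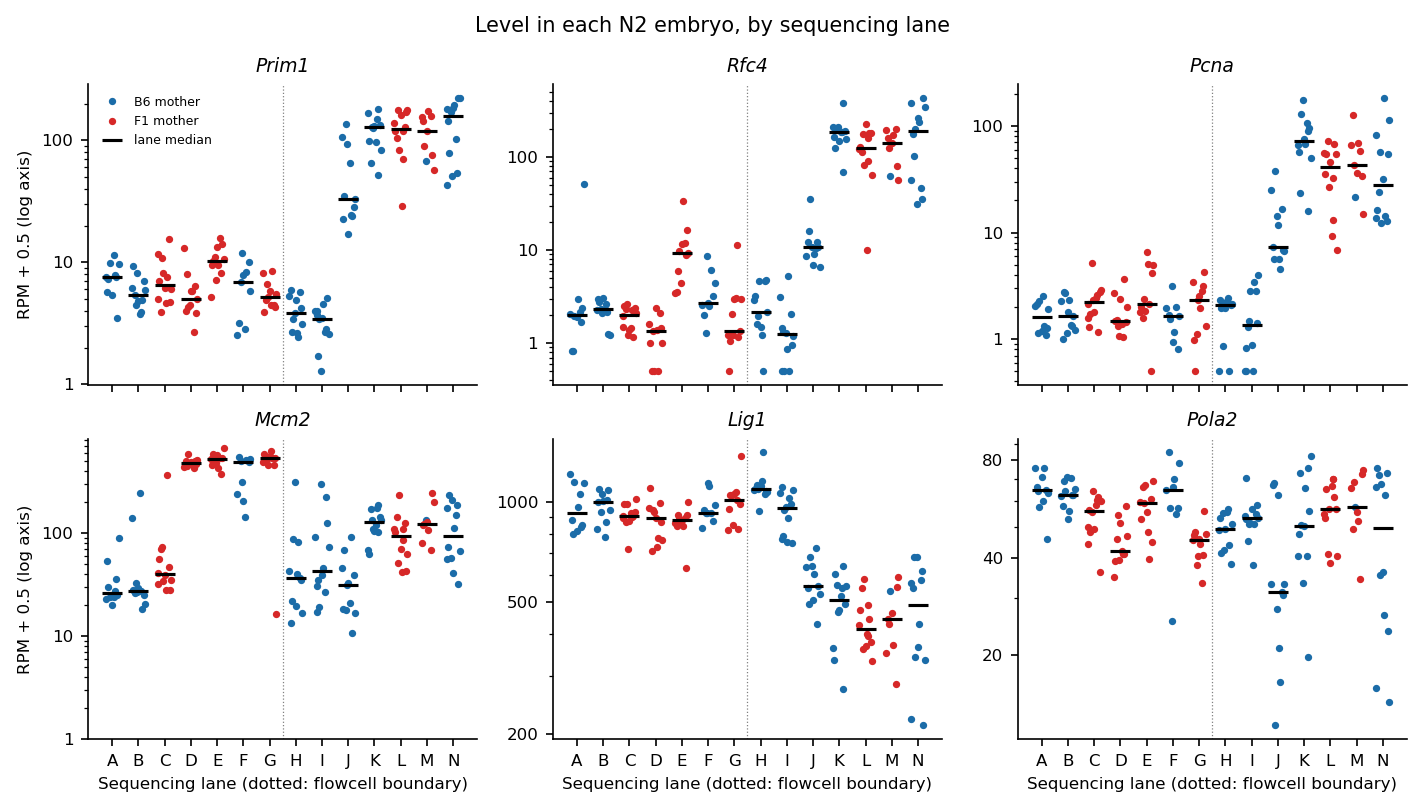
Levels of 6 replication genes in the 154 N2 embryos by sequencing lane, as RPM + 0.5 on a log axis; points are single embryos coloured by the mother, and bars are lane medians. *Prim1*, *Rfc4* and *Pcna* were high in lanes K to N, *Mcm2* was high in lanes D to G, and *Lig1* was lower in lanes J to N.

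Median levels over the 154 N2 embryos ran from 2.05 RPM (*Pcna*) to 851 RPM (*Lig1*). RPM of 3′ ends were not divided by gene length, and no order among genes was read from them. *Pcna* was at 0 in 7 embryos and *Rfc4* in 8, at a median of 5 and 6 reads per embryo. The level of *Pcna* in the F1 embryos lay between 0.758 and 7.56 RPM, so that its count was low there too. Reads with a close second hit in the genome had been dropped before counting. Whether this lowered the count of *Pcna* was not tested, so its RPM is not read as its true level.

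The first question was whether the replication genes fell as the embryos aged. Among the 37 genes, 3 fell with somite number and 0 rose, in edgeR's quasi-likelihood test within lane and mother over the 147 embryos (Benjamini-Hochberg adjusted p under 0.05). Of all 10040 genes tested, 4.09% fell and 5.9% rose. The slopes of the group lay lower than those of genes in general, with a median of -0.0237 log2 units per somite against -0.00199, and 30 of 37 slopes (81.1%) were below 0 against 52.6% of all genes. An unadjusted p under 0.05 was found for 10 of the 37 and for 2176 of the 10040 genes. DESeq2 called 5 of the 37, all of them falling, and its share over all genes is not given here.

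*Top2a*, the topoisomerase that untangles replicated DNA (chr11:98854257-98885503), had 249, 445 and 670 RPM as lowest, median and highest level in the 21 embryos with 45 or fewer somites. In the 112 embryos with 46 to 52 somites it had 219, 414 and 1237 RPM, and in the 14 with 53 or more it had 222, 310 and 856 RPM. These levels are pooled over lanes, whose mean somite number ran from 45.2 in lane N to 51.6 in lane I. The 3 stages of *Top2a* overlapped widely, and the youngest had the highest median. Its slope was -0.0394 ± 0.0091 log2 units per somite (SE; adjusted p = 0.000963), which over 10 somites is a ratio of 0.761 (95% interval 0.672 to 0.862).

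*Mcm7*, a helicase subunit (chr5:138605811-138613650), had medians of 50.5, 47.0 and 39.7 RPM at these 3 stages, with ranges of 5.30 to 118, 6.73 to 137 and 13.3 to 75.1 RPM. The ranges overlapped almost fully. The slope of *Mcm7* was -0.0790 ± 0.025 (adjusted p = 0.0286), a ratio of 0.578 over 10 somites (0.409 to 0.817). *Mcm10*, which acts in helicase activation (chr2:4910760-4933837), had medians of 21.2, 16.6 and 11.5 RPM, with ranges of 13.0 to 71.6, 6.05 to 60.6 and 6.59 to 40.8 RPM. Its slope was -0.0544 ± 0.019 (adjusted p = 0.0451), a ratio of 0.686 (0.532 to 0.885). The calls for *Mcm7* and *Mcm10* were each lost in at least 16 of 32 other settings, and that for *Top2a* in 4. With litter in place of lane and mother 0 of the 37 genes were called, the slope of *Top2a* was -0.0176 (adjusted p = 0.714), and only 20.3% of the variance of somite number lay within litters. Without lane N 7 genes fell, and the share of all genes in that fit is not given here.

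By role, the 5 subunits of polymerases delta and epsilon, the 3 of the single-strand binding protein and the 3 genes of Okazaki fragment maturation and topology all had slopes below 0, with none but *Top2a* called. Among those not called, the smallest adjusted p was that of *Rfc2* of the clamp loader (-0.0328 ± 0.012, adjusted p = 0.0561), followed by *Pold3*, an accessory subunit of polymerase delta (-0.0457 ± 0.017, adjusted p = 0.0613). The helicase subunits did not share 1 slope: *Mcm7* and *Mcm4* (-0.0713 ± 0.030, adjusted p = 0.133) had the lowest, *Mcm2* was at 0.0052 ± 0.036 and *Mcm5* at 0.0163 ± 0.022. *Cdc6* (0.0019 ± 0.024) and *Cdt1* (0.0037 ± 0.024), which load the helicase, were near 0. Among the nucleotide genes *Rrm2*, the regulated subunit of ribonucleotide reductase, had the lowest slope (-0.0771 ± 0.035, adjusted p = 0.174), and *Tyms*, which makes dTMP, the highest of all 37 (0.0176 ± 0.023, adjusted p = 0.728). For genes with wide scatter between embryos the error was large: the interval of *Pcna* over 10 somites ran from a ratio of 0.528 to 1.79, so that neither a fall nor a rise of moderate size was detectable.

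**Figure D2:**
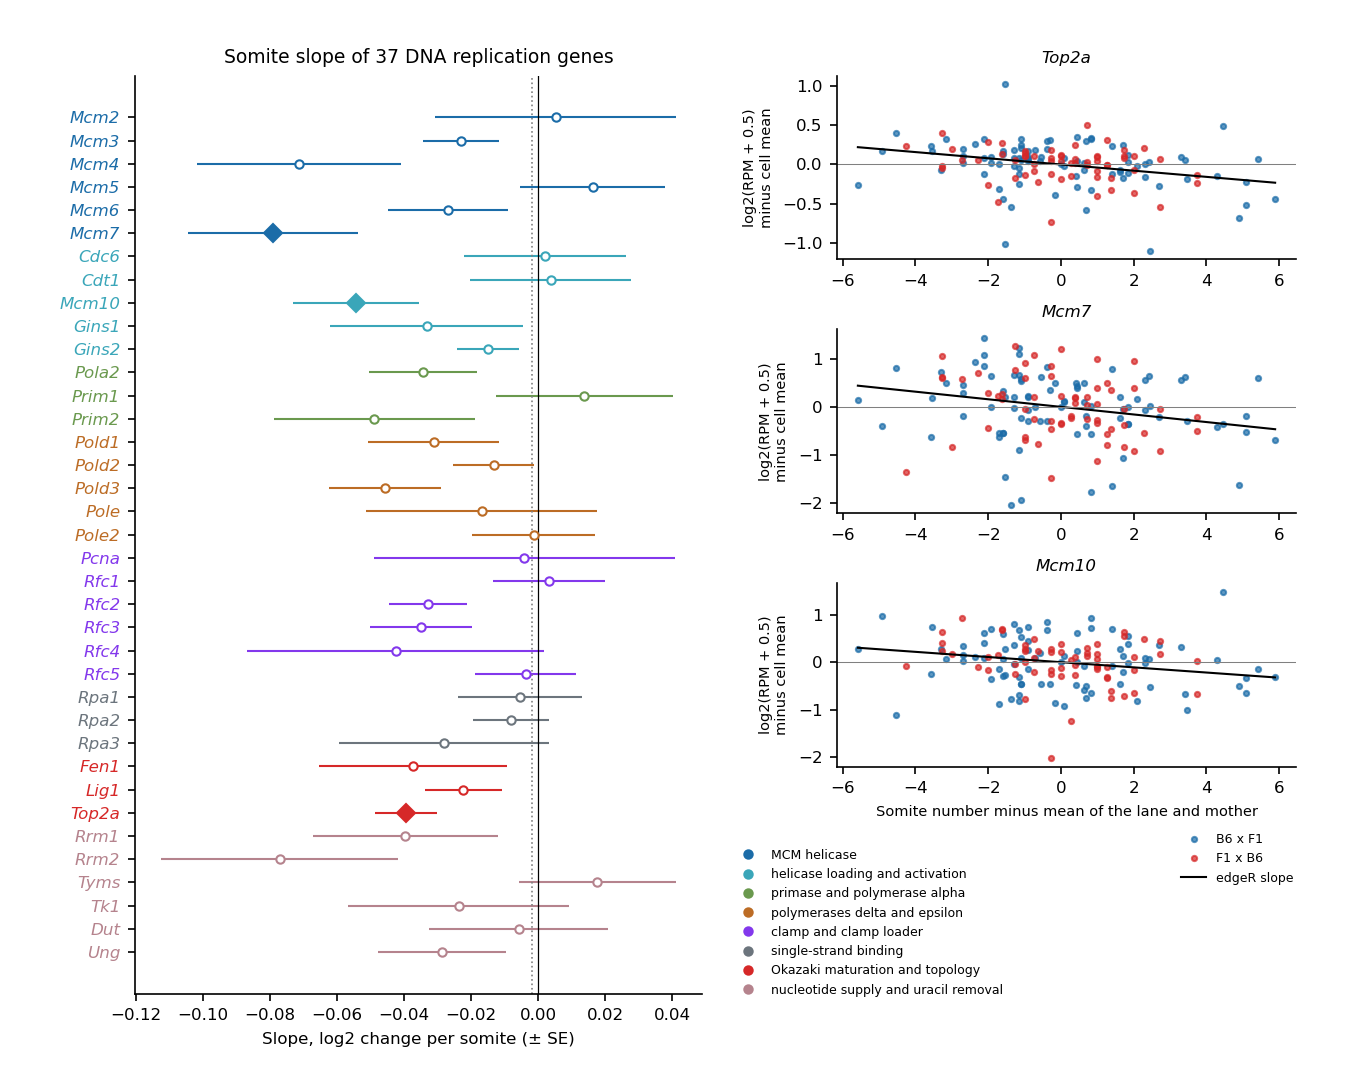
Left, slope of each gene in log2 change per somite with its standard error, coloured by role; filled diamonds passed the test, and the dotted line is the median of all genes. Right, log2(RPM + 0.5) of the 3 called genes in 147 embryos, each as its distance from the mean of its lane and mother, against somite number taken the same way; most slopes lie below 0 and the points scatter widely around the lines.

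Whether the slopes differed between the backcrosses was tested with the interaction of somite number and mother. In edgeR's test 0 of 37 genes differed, against 0.00996% of all genes (1 of 10040). An unadjusted p under 0.05 was found for 1 of the 37 and for 623 of the 10040. The 1 replication gene was *Mcm4* (chr16:15623990-15637493), whose slope was -0.133 ± 0.036 under B6 mothers (adjusted p = 0.00962) and 0.0475 ± 0.050 under F1 mothers (adjusted p = 0.760). The difference of 0.180 ± 0.062 did not pass (adjusted p = 0.589). In the same fit 2 of the 37 genes, *Mcm4* and *Top2a*, fell under B6 mothers (all genes 2.68%) and 0 under F1 mothers (all genes 0.299%). Under F1 mothers 4 of the 37 and 1219 of the 10040 genes had an unadjusted p under 0.05. *Top2a* had slopes of -0.0369 ± 0.011 and -0.0459 ± 0.017 under the 2 mothers.

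Other genes of the replication machinery, the cell cycle and other cell types give the setting of these slopes. Of 15 further genes of origin licensing and firing 2 fell and 0 rose, *Recql4* (-0.0440 ± 0.013, adjusted p = 0.0200) and *Gmnn*, the inhibitor of Cdt1 (-0.0602 ± 0.019, adjusted p = 0.0210). Of 13 further fork and polymerase genes 4 fell, with the smallest p for *Rnaseh2c* (-0.0592 ± 0.015) and *Chtf18* (-0.0431 ± 0.011). Of 7 genes of chromatin assembly at the fork 2 fell, *Nasp*, a histone chaperone (-0.0639 ± 0.010, adjusted p = 7.41e-07), and *Chaf1b* (-0.0370 ± 0.012). Of 8 other nucleotide genes 1 fell, *Samhd1*, which degrades dNTPs (-0.0261 ± 0.0091), while *Dck* was at -0.0636 ± 0.032 (adjusted p = 0.236). None of these 4 lists held a gene that rose, and their medians ran from -0.0213 to -0.0372.

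Of 17 regulators of the G1/S transition 3 fell, with the smallest p for the cyclins *Ccnd1* (-0.0304 ± 0.0087) and *Ccnd2* (-0.0400 ± 0.014), and of 23 mitosis genes 2 fell, *Plk1* (-0.0524 ± 0.012) and *Bub1b* (-0.0469 ± 0.015). Of 7 genes of cell cycle exit 2 rose, *Cdkn1a*, which encodes the inhibitor p21 (0.0764 ± 0.014), and *Rbl2* (0.0533 ± 0.014). The summed level of the 10 listed, pooled over lanes, did not rise, with medians of 1392, 1220 and 871 RPM at the 3 stages.

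Markers of differentiated tissues moved with the same somite numbers. All 7 liver markers tested rose, with the smallest p for *Ttr* (0.107 ± 0.016) and *Apoa2* (0.134 ± 0.023), and the summed level of the 8 listed had medians of 752, 999 and 1405 RPM at the 3 stages. Of 9 muscle markers 5 rose (*Tnnt1* 0.0927 ± 0.013, *Myog* 0.0910 ± 0.020) and of 7 cartilage markers 3 rose (*Mia1* 0.292 ± 0.025, *Matn4* 0.249 ± 0.029). Of 6 neural progenitor markers 2 fell, *Nes* (-0.0802 ± 0.010) and *Sox2* (-0.0746 ± 0.024), and of 8 neuron markers 0 passed, the smallest p being those of *Tubb3* (0.0509 ± 0.021) and *Stmn2* (0.0259 ± 0.011). Of 7 red blood cell markers 3 rose and 2 fell, and those with the smallest p, *Slc4a1* (0.0918 ± 0.019) and *Klf1* (0.0780 ± 0.017), both rose. *Dcn* of the placenta and decidua list also rose (0.0959 ± 0.026). The red blood cell list took 28842 to 186596 RPM of single N2 libraries. Its summed level, pooled over lanes, was lower in older embryos, with medians of 85766, 76505.5 and 62415.9 RPM at the 3 stages. With the globin genes left out of the total, 2 of the replication genes fell, and the share of all genes in that fit is not given here. The part of these tissues in the slopes of the replication genes was not tested.

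The genotype of the mother was compared between B6 × F1 and F1 × B6 embryos on counts summed per lane, since 13 of 14 lanes held embryos of 1 mother genotype. In edgeR's quasi-likelihood test over the 14 sums, with flowcell and mean somite number as terms, 0 of 37 replication genes and 0% of the 10022 genes tested passed. With an unadjusted p under 0.05 there were 13 of the 37 and 3124 of all genes. *Pole*, the catalytic subunit of polymerase epsilon, had 0.671, 9.86 and 157 RPM as lowest, median and highest level under B6 mothers, and 5.33, 56 and 148 RPM under F1 mothers. *Fen1*, the flap nuclease of Okazaki fragments, had 3.94, 17.5 and 209 RPM under B6 mothers and 6.05, 69.8 and 129 RPM under F1 mothers. The medians lay apart and the ranges overlapped. The log2 difference, F1 minus B6 mothers, was 2.30 ± 0.58 for *Pole* and 2.06 ± 0.57 for *Fen1*, and both had an adjusted p of 0.0926, the smallest among the 37.

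The direction was not shared, with 25 of the 37 differences above 0 and 12 (32.4%) below, against 46.2% of all genes below 0. The median difference was 0.227, against 0.0711 over all genes. *Tk1*, the thymidine kinase, had -1.0 ± 0.34 (adjusted p = 0.100) and *Pold1* -0.74 ± 0.25 (adjusted p = 0.101). Tests that count each embryo gave between 6 and 22 genes, and leaving out lane E gave 11. The shares of all genes called in these settings are not given here, so the counts are not read as a result about the replication genes. Lane and mother cannot be told apart at the level of single embryos.

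In the F1 crosses, an older and a younger litter could be compared within each cross. In B6 × Cast the older litter 3 (somite numbers 58, 63 and 1 not known) was set against litter 5 (48 to 50), and both litters were sequenced in the same 2 runs. Each age is 1 litter, so that age and litter cannot be told apart, and p-values over littermates do not cover the spread between litters. In edgeR's test 4 of the 35 replication genes that reached 5 RPM on average were lower in the older litter and 0 higher. Of all 9728 genes, 8.43% were lower and 7.52% higher. An unadjusted p under 0.05 was found for 11 of the 35 and for 3047 of the 9728. DESeq2 called 7 lower and 0 higher, and its share over all genes is not given here. *Pcna* and *Rpa3* did not reach 5 RPM on average. The DNA polymerase delta subunit *Pold1* had 192, 184 and 204 RPM in the older embryos and 214, 216, 247, 274 and 242 RPM in the younger ones, without overlap (log2 change -0.43 ± 0.11, adjusted p = 0.0165). Its partner *Pold2* had 198, 157 and 165 RPM against 193, 184, 220, 254 and 229 RPM, and 1 older embryo lay above 2 of the younger (-0.44 ± 0.14, adjusted p = 0.0432). *Rfc2* had 240, 238 and 239 RPM against 261, 301, 270, 302 and 299 RPM (-0.38 ± 0.092, adjusted p = 0.0130). *Ung*, the uracil glycosylase, had 44.7, 46.3 and 43.2 RPM against 61.8, 62.4, 56.4, 43.1 and 57.5 RPM (-0.45 ± 0.14, adjusted p = 0.0420). *Rfc2* did not overlap between the litters and *Ung* did in 1 embryo. These 4 calls rested on few embryos: without replicate 2 none of the 35 passed, and without replicate 3 1 did.

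In Cast × B6 the older litter 2 (46 to 48, 1 not known) was set against litter 1 (41 to 43, 1 not known). In edgeR's test 13 of 35 genes were lower and 3 higher in the older litter, against 16.6% lower and 19.2% higher of all genes. Here litter 1 was sequenced in the runs named gaIIx and hs1 and litter 2 in hs1 and hs2, so that age, litter and run cannot be told apart. The largest falls that passed were in the thymidine genes. *Tk1* had 23.2, 13.8, 15.8 and 9.65 RPM in the older litter and 24.1, 39.6, 39.1 and 36.9 RPM in the younger, without overlap (-1.23 ± 0.27, adjusted p = 0.00314). *Tyms* had 40, 56.6, 35.5 and 25.7 RPM against 107, 73.3, 63.3 and 87.5 RPM, also without overlap (-1.17 ± 0.22, adjusted p = 0.00113). *Prim2*, the large subunit of primase, had 13.4, 14.2, 9.75 and 6.42 RPM against 19.6, 17.8, 17.7 and 22.1 RPM (-0.90 ± 0.24, adjusted p = 0.0084). The other 10 lower genes were *Mcm3*, *Mcm6*, *Cdt1*, *Mcm10*, *Gins1*, *Pola2*, *Pold3*, *Rfc3*, *Rrm1* and *Ung*, with log2 changes from -0.85 (*Gins1*) to -0.31 (*Pola2*).

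*Mcm7* went the other way, with 115, 140, 79.3 and 63.8 RPM in the older litter and 71.6, 42.2, 35.5 and 42.6 RPM in the younger one (0.95 ± 0.28, adjusted p = 0.0163). It was among the genes that fell with somite number in N2, and its change between the B6 × Cast litters was -0.20 ± 0.29 (adjusted p = 0.679). The clamp loader genes *Rfc5* (0.55 ± 0.12, adjusted p = 0.00377) and *Rfc1* (0.41 ± 0.14, adjusted p = 0.0328) were also higher in litter 2. *Top2a* did not pass in either cross (-0.09 ± 0.12 and -0.04 ± 0.12), and its 8 Cast × B6 embryos lay between 324 and 493 RPM. *Ung* alone among the 35 passed the test as lower in both crosses. Over the 35 genes the median change was -0.08 between the B6 × Cast litters (all genes 0.04) and -0.35 between those of Cast × B6 (all genes -0.02). The red blood cell markers summed to a mean of 32743 RPM in litter 3 and 79169 RPM in litter 5 of B6 × Cast, and to 108086 RPM in litter 1 and 61375 RPM in litter 2 of Cast × B6. Their part in the changes was not tested.

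Replicates 1 and 6 of Cast × B6, which belong to litters 1 and 2, stood apart from the other 6 in several replication genes. *Mcm2* had 424 and 383 RPM in them and 83.2 to 287 RPM in the others, *Dut* 582 and 407 against 81.2 to 291, *Fen1* 146 and 134 against 18.5 to 67.4, and *Mcm4* 77 and 55.2 against 19.5 to 26.7 RPM. In each of these 4 genes both embryos lay above all others. Replicate 1 alone was high in *Rfc4*, with 97.4 RPM against 3.03 to 10.7 RPM, and in *Rrm2*, with 207 against 34.5 to 111 RPM. Without both embryos 13 genes were lower and 3 higher, and *Gins1* was no longer among them (adjusted p = 0.065). This comparison was chosen after the values had been seen.

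**Figure D3:**
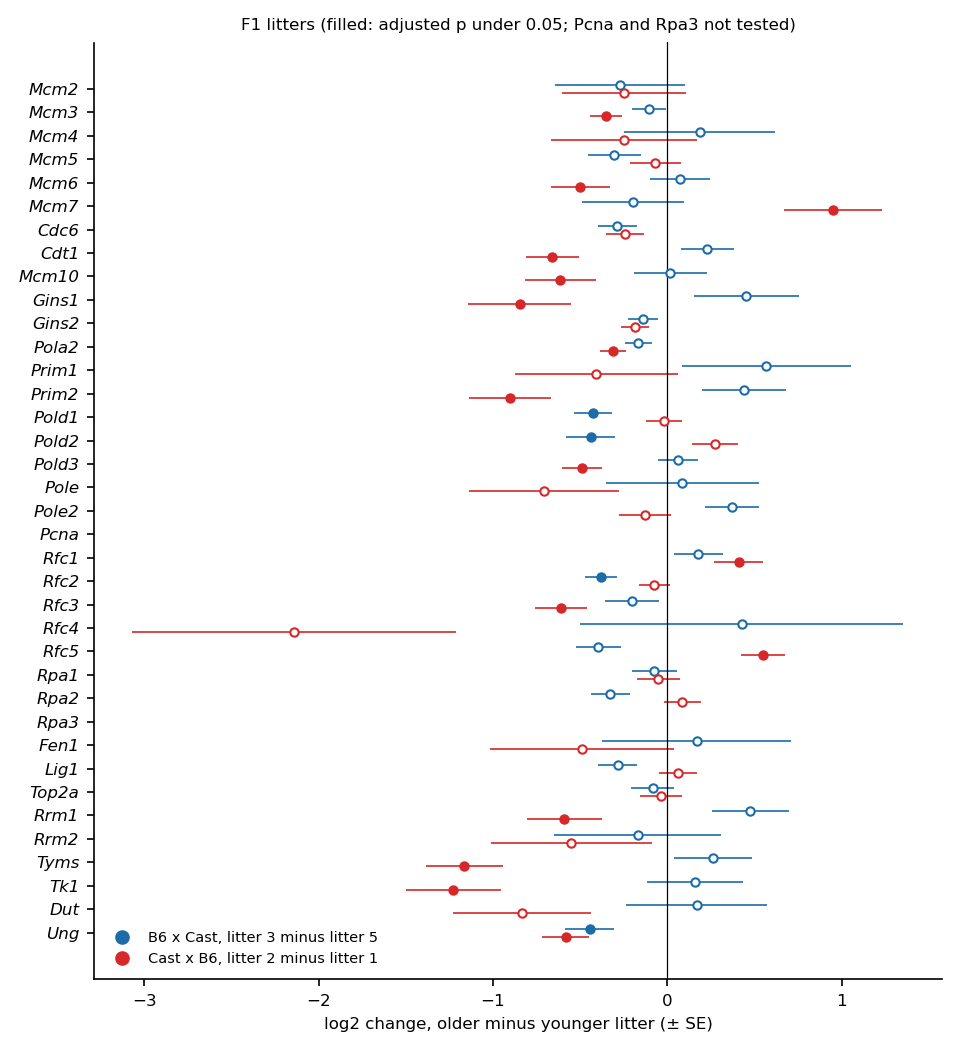
Log2 change of 35 replication genes between the older and the younger litter of each F1 cross with its standard error; filled points passed the test. More genes passed in Cast × B6, 13 lower and 3 higher, than in B6 × Cast, 4 lower.

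Allele-specific expression (ASE) was measured as the B6 allele fraction (BAF), the share of allele votes that support B6, where every SNP that a read covers carries an equal part of its vote. A paired test of the votes, pooling heterozygous N2 embryos with all 16 of F1, could be run for 33 genes. *Pcna* and *Mcm6* had no vote in any embryo, and *Prim1* and *Pold1* had too few in N2. In 7 of the 33 ASE was called, which required a BAF beyond the window of 0.45 to 0.55 and a p, adjusted after Bonferroni, below 0.01. The B6 allele was higher in 5, against 9.7% of 9084 genes, and the Cast allele in 2, against 9.17%. The median BAF of the 33 was 0.50 and their median distance from 0.5 was 0.0380, against 0.0443 over all genes.

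*Prim2* (chr1:33510656-33726631) had the highest BAF, 0.746 over all votes, with means of 0.693 ± 0.092 over the 8 B6 × Cast embryos and 0.699 ± 0.055 over the 8 Cast × B6 embryos (SD), and the B6 allele was the higher in 16 of 16 F1 embryos. *Tyms* (chr5:30384742-30400157) had F1 means of 0.698 ± 0.044 and 0.694 ± 0.056, and 0.586 in the pooled votes of heterozygous N2 embryos. *Tk1* (chr11:117676840-117687406) had 0.676 ± 0.089 and 0.630 ± 0.083, and 0.720 in N2. *Pole2*, the second subunit of polymerase epsilon (chr12:70302766-70329177), had 0.588 ± 0.025 and 0.597 ± 0.048, and 0.608 in N2. All 4 had the B6 allele higher in 16 of 16 F1 embryos.

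The Cast allele was the higher in *Dut*, with F1 means of 0.301 ± 0.084 and 0.279 ± 0.15 and 0.400 in N2, and in *Cdt1* (chr8:125091915-125097028), with 0.442 ± 0.028 and 0.391 ± 0.070 and 0.393 in N2, both in 16 of 16 F1 embryos. *Rpa3* had the lowest BAF of all, 0.232, but on 164 F1 votes and 60 in N2, and was not called. A further 6 genes passed the adjusted p but lay inside the window, *Mcm3* (0.513), *Rfc2* (0.491), *Rfc5* (0.462), *Rpa1* (0.456), *Lig1* (0.519) and *Top2a* (0.497). *Lig1* lay between 0.499 and 0.532 in the 16 F1 embryos.

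The BAF of *Mcm2* was 0.625 over all votes and differed between lanes and embryos. In lanes D to G, where its lane medians were 481 to 530 RPM, the pooled BAF of heterozygous embryos was 0.502 to 0.559, and in the other 10 lanes, at 25.6 to 126 RPM, it was 0.556 to 0.883. In Cast × B6 replicates 1 and 6, the ones with the highest level, the BAF was 0.520 and 0.526, and in the other 6 it was 0.638 to 0.925. *Dut* behaved alike in these F1 embryos, with 0.460 and 0.458 in replicates 1 and 6 against 0.119 to 0.436 in the others. The lane ranges of *Mcm2* met at lanes E, F and N, whose BAF was 0.558, 0.559 and 0.556 at 520, 492 and 92.2 RPM. For *Top2a* the lane BAF was 0.479 to 0.508 in lanes A to I and 0.369 to 0.467 in lanes J to N. Embryos of a lane were sequenced together, and no test was run on these lane values.

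Dependence on the parent of origin was tested as the difference of BAF between the F1 crosses. In a quasi-binomial fit 1 of 33 genes passed, *Mcm4*, against 1.28% of genes. Its BAF was 0.674, 0.640, 0.609, 0.634, 0.645, 0.645, 0.567 and 0.567 in the 8 B6 × Cast embryos and 0.497, 0.507, 0.473, 0.447, 0.429, 0.508, 0.537 and 0.451 in the 8 Cast × B6 embryos. The crosses did not overlap, and the difference was 0.134 (adjusted p = 0.000820). The maternal allele was the higher in 8 of 8 embryos of B6 × Cast, and in 5 of 8 of Cast × B6 the Cast, maternal allele was the higher. No such shift was seen in the pooled votes of heterozygous N2 embryos by lane, on 44.5 to 201 votes each: the BAF was 0.415 to 0.595 in the lanes of B6 mothers and 0.436 to 0.533 in those of F1 mothers (lane M, which also holds an embryo of a B6 mother, included). The ranges overlapped, and the N2 values were not tested. Without Cast × B6 replicates 1 and 6, chosen after the values had been seen, 3 genes passed, adding *Mcm2* (-0.201, adjusted p = 0.00501) and *Cdt1* (0.078, adjusted p = 0.0215).

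**Figure D4:**
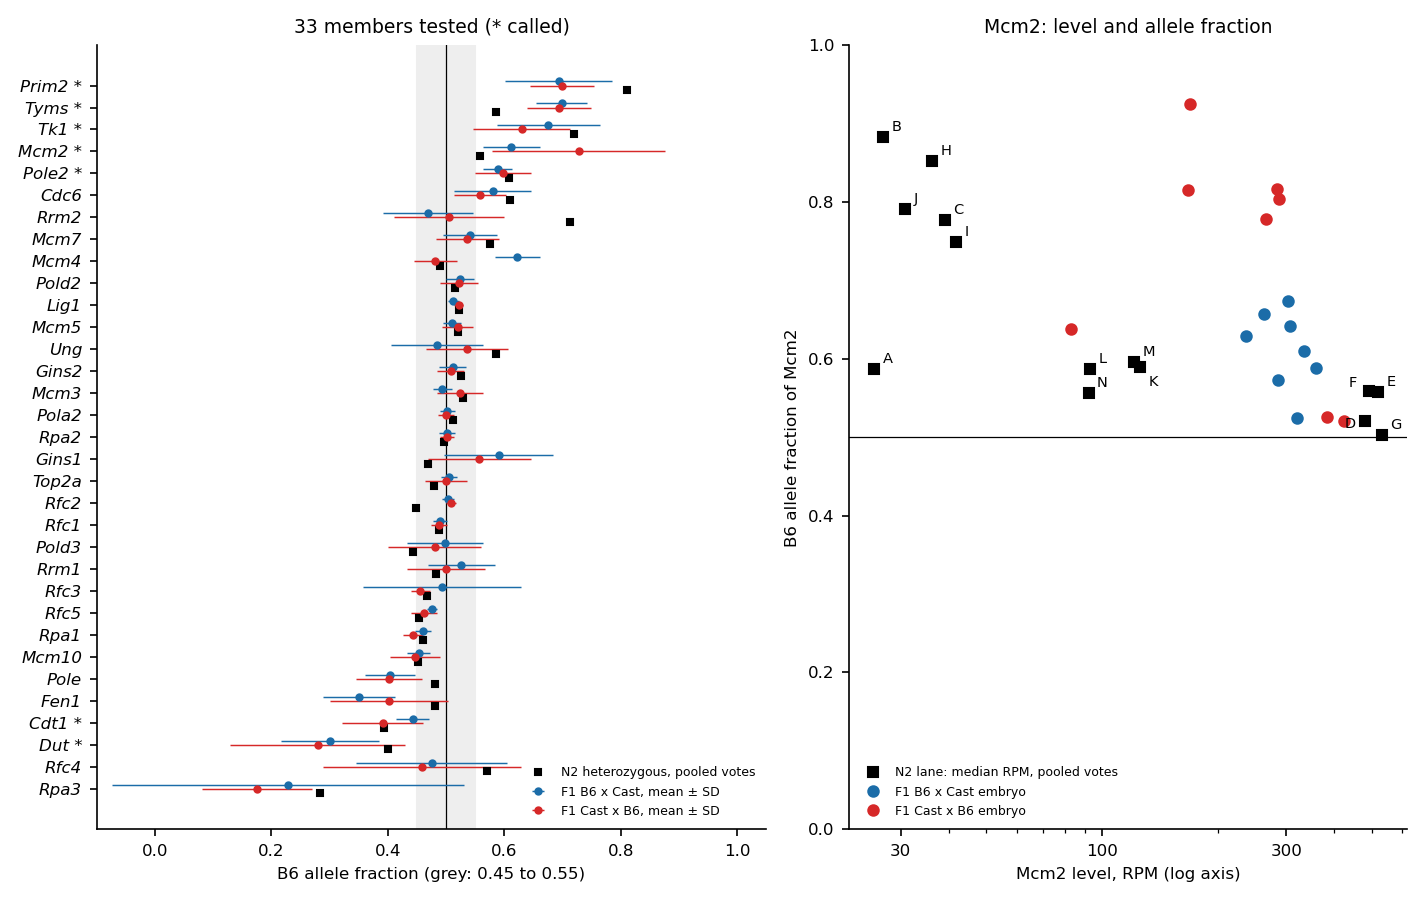
Left, BAF of the 33 genes tested, as mean ± SD of 8 F1 embryos per cross and as pooled votes of heterozygous N2 embryos; asterisks mark genes with ASE and grey the window from 0.45 to 0.55. Right, BAF of *Mcm2* against its level on a log axis, with a square for each N2 lane and a circle for each F1 embryo; lanes D to G lie between 0.502 and 0.559 and the other lanes between 0.556 and 0.883.

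The effect of a gene's own genotype on its total level was tested between heterozygous and homozygous N2 embryos, with a rank-sum test on residuals after lane and mother, sex, somite number and 15 principal components. Of the 37 genes 7 were higher and 12 lower in heterozygous embryos, against 18.1% higher and 17.1% lower of 9762 genes. The largest differences were in *Prim2*, *Rpa3* and *Tk1*. *Prim2* had 0, 7.59 and 52.1 RPM as lowest, median and highest level in 66 heterozygous embryos and 0.968, 12.5 and 58.8 RPM in 81 homozygous ones (log2 difference of residuals -0.55 ± 0.083, adjusted p = 5.5e-08). *Tk1* had 0, 10.2 and 48.6 RPM in 68 against 0, 19.8 and 51.8 RPM in 79 (-0.46 ± 0.071, adjusted p = 2.9e-08). *Rpa3* (chr6:8205936-8209173), the small subunit of the single-strand binding protein, had 1.66, 5.96 and 30.8 RPM in 68 against 2.92, 9.43 and 163 RPM in 79 (-0.48 ± 0.069, adjusted p = 5.95e-09). The ranges overlapped in all 3 and the medians of the heterozygous embryos were lower. The BAF of *Rpa3*, 0.232 on few votes and not called, gives the Cast allele the larger share and did not go with its lower level.

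*Pcna*, for which no allele could be counted, was lower in heterozygous embryos (-0.35 ± 0.093, adjusted p = 0.000549, 73 against 74 embryos). This difference is one of residuals, at a median of 5 reads per embryo. As lowest, median and highest level *Pcna* had 0, 2.29 and 130 RPM in heterozygous and 0, 2.06 and 182 RPM in homozygous embryos. The median of the heterozygous embryos was thus not the lower one. The other lower genes were *Mcm2*, *Cdc6*, *Pold1*, *Pold2*, *Pole2*, *Rfc2*, *Lig1* and *Ung*, and the higher ones *Cdt1*, *Rfc1*, *Rfc3*, *Rfc5*, *Rpa1*, *Top2a* and *Dut*. Of these, *Rfc2* had the smallest p, with 47.1, 201 and 294 RPM in 71 heterozygous and 65.2, 273 and 374 RPM in 76 homozygous embryos (-0.23 ± 0.024, adjusted p = 3.07e-14). Its BAF was near 0.5 in F1, at 0.503 ± 0.011 and 0.508 ± 0.0084. In N2 its BAF was 0.448, where a value under 0.5 gives the Cast allele the larger share, and this did not go with that direction.

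Of the 37 genes 6 were called both for ASE and for own genotype, *Mcm2*, *Prim2*, *Pole2*, *Tk1*, *Cdt1* and *Dut*, and in all 6 both measures had the same direction: with the B6 allele higher, heterozygous embryos had the lower level, and with the Cast allele higher, the higher level. Among all genes 1191 were called in both and 96.8% of these had the same direction. *Tyms* was called for ASE alone, with a difference of 0.09 ± 0.050 between genotypes (adjusted p = 0.216). A further 11 tested for both were called for own genotype alone. The shared direction holds for the 6 genes that passed both tests and was not seen across the group. Over all 33 replication genes with both values, the genotype difference and the one expected from the BAF went together only weakly (Pearson's r = 0.126). These 33 include genes with few votes such as *Rpa3*. Linked genes mostly share their genotype within an embryo, so that an own-genotype difference also takes in linked loci.

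Coexpression was described over the 147 N2 embryos as Spearman's rho of residuals after lane, mother and somite number. The median over the 666 pairs of replication genes was 0.116, against 0.0493 over all pairs of the 10040 genes, and 66.2% of pairs were above 0 against 58.2%. The range was from -0.627 to 0.718. A rho over 0.3 was found for 23.7% of pairs against 13.3%. *Mcm3*, a helicase subunit, had the highest mean rho with the other 36 (0.236), followed by *Rrm1*, the large subunit of ribonucleotide reductase (0.208), and *Cdt1* (0.205). Their median rho was 0.260, 0.261 and 0.271 with the other 36, and 0.184, 0.176 and 0.129 with all genes tested. The closest pairs were *Pold1* with *Pold2* (0.718), *Gins1* with *Rrm1* (0.685) and *Mcm3* with *Pole* (0.677). *Mcm2* was closest to *Mcm5* (0.589), another subunit of the same ring.

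The genes did not form 1 block. *Pold2* (mean rho -0.201), *Pold1* (-0.157) and *Rfc2* (-0.0727) had the lowest means, and *Lig1* went with *Pold1* (0.675). The median rho of *Pold2*, *Pold1* and *Rfc2* was -0.276, -0.254 and -0.133 with the other 36. With all genes tested it was -0.154, -0.142 and -0.0660, so low values were not particular to pairs of replication genes. *Pold2* had rho values of -0.627 with *Tyms* and -0.596 with *Gins1*, and *Pold1* had -0.579 with *Rrm1*. Thus *Pold1*, the catalytic subunit of polymerase delta, its partner *Pold2* and the ligase went together and against *Gins1*, *Rrm1* and *Tyms*, while *Pold3*, another subunit of polymerase delta, was closest to *Rfc3* (0.626). The same split of signs was seen with all genes tested, where the median rho was -0.0648 for *Lig1*, 0.173 for *Gins1*, 0.176 for *Rrm1* and 0.108 for *Tyms*. *Mcm7*, which had the lowest slope with somite number, had a mean rho of 0.0619.

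The mean profile of the 37 genes was closest, among the other genes, to *Angel2* (0.757), *Nup62* (0.741), *Mknk2* (0.731), *Thoc7* (0.730) and *Tpx2*, a spindle factor (0.719). Over all genes the median rho with this profile was 0.210, and 7319 of 10040 genes were above 0. The lists of mitosis (median 0.414, 23 of 23 above 0), chromatin assembly (0.432, 6 of 7) and other nucleotide genes (0.417, 8 of 8) lay above that median. So did G1/S regulators (0.339, 14 of 17), origin licensing (0.316, 14 of 15) and neurons (0.215, 8 of 8). *Dcn*, the 1 gene tested of the placenta and decidua list, had a rho of 0.474. Below the median lay other fork genes (0.171, 8 of 13), neural progenitors (0.147, 6 of 6), cell cycle exit (0.130, 5 of 7) and liver (0.00194, 4 of 7). Lowest were red blood cells (-0.200, 2 of 7), muscle (-0.134, 3 of 9) and cartilage (-0.0978, 3 of 7). The profile had a rho of 0.129 with depth. The embryos share lanes and litters, and no p is given.

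**Figure D5:**
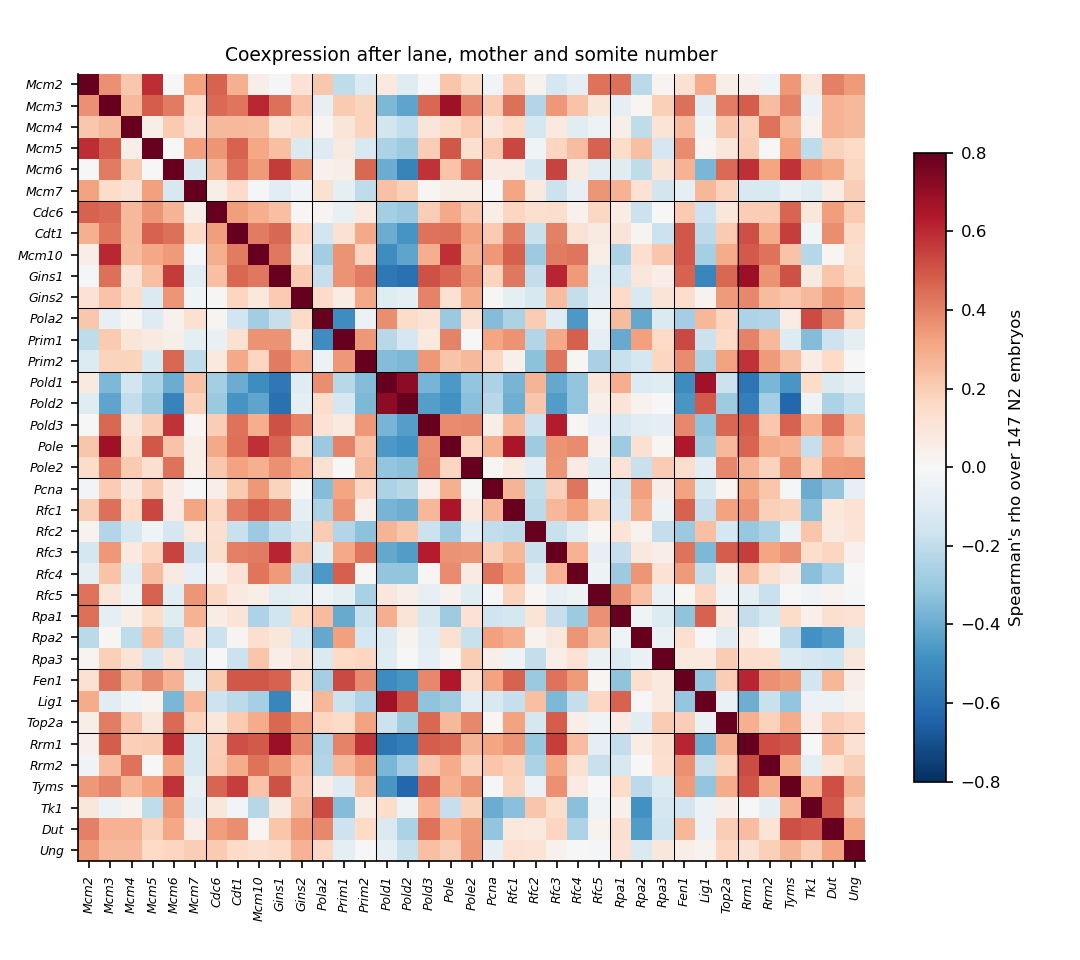
Spearman's rho of each pair of replication genes over 147 N2 embryos after lane, mother and somite number, from blue (below 0) to red (above 0); lines separate the roles. *Pold1*, *Pold2* and *Lig1* are red among themselves and blue with *Gins1*, *Rrm1* and many of the others.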

How the data were processed

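Single embryos were profiled by 3SEQ. The authors trimmed poly(A) tails, aligned reads with Bowtie2 to mm9 and to a Cast version of it, dropped reads with a close second hit, and deposited read counts per RefSeq gene, estimated counts of votes for each allele (expected counts, which need not be whole), and a genotype code per gene from a hidden Markov model. Whether counting used strand is not given in the sources used here. Every F1 column pools 2 sequencing runs of 1 embryo.

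Groups were taken from the labels. Of 168 N2 columns, 8 without parents in the labels and 6 without genotypes were not used. Columns of other samples numbered 0. Levels are RPM, and log2 values carry a pseudocount of 0.5. Genes reaching 5 RPM on average were fitted with edgeR 4.0.16 (R 4.3.3; quasi-likelihood test, TMM) across the whole table, with p-values adjusted over all genes. DESeq2 1.42.0 and limma 3.58.1 served as alternatives. Allele tests required 20 votes per cross, and intervals are at the 95% level. Python 3.11.15, numpy 2.4.6, scipy 1.17.1, pandas 2.3.3 and matplotlib 3.10.9 were used for the rest. Scripts were tested on simulated data. Every replication gene was counted, and one was named with values where it passed a test, was among the 3 largest or 3 smallest in level, slope, allele fraction or mean correlation, stood first in its role, or fell below the level filter. From each list the 2 genes with the smallest p for somite number were named, and for the mean profile the 5 closest other genes. Beyond this rule, some genes described by lane, by mother and in Cast × B6 replicates 1 and 6 were picked with their values in view. The genes and lists were chosen with earlier results of these data known. Littermates are separate embryos, and p-values measure the spread between embryos. Depth limits genes with few reads, and no interval covers more than counting and embryo-to-embryo error. Gene positions are from GENCODE vM1 on mm9, promoters from RefSeq on GRCm38.p6, and no coordinates were converted.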

Additional observations from a re-analysis of the deposited data

Results flagged for a closer look

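A single embryo stood far from the other 7 of its cross in 4 of 90 groups of 8 values tested, where chance gives about 1 in 20. *Mcm4* had 25.9 RPM in B6 × Cast replicate 3 against 15.8 to 18.4 RPM in the others. *Rfc3* had 63.1 RPM in the same embryo against 96.3 to 118 RPM, and its BAF there was 0.822 against 0.418 to 0.497 in the other 7. *Rfc4* had 97.4 RPM in Cast × B6 replicate 1 against 3.03 to 10.7 RPM, with a BAF of 0.147. *Rrm2* had 207 RPM in that embryo against 34.5 to 111 RPM.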

How the results depend on the processing

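None of the genes called for somite number, F1 litter, ASE, parental origin or own genotype changed direction under the alternatives run for them, and single genes were not followed for mother genotype or the interaction with mother. The number of replication genes called for somite number, 3, was 6 on litter sums, 14 with no lane or mother term, 1 scaled by total reads, 0 with litter in place of lane and mother, 0 with F1 mothers only, 6 on flowcell 1, 0 on flowcell 2, 5 by DESeq2 and 12 by Spearman's test over all embryos, and 2 to 7 with a lane left out (7 without lane N). The share of all genes called moved too, from 9.99% to 13.0% on litter sums, 24.4% with no lane or mother term and 1.63% with litter in their place. Of 96 alternatives for the 3 genes, 59 kept the call. For mother genotype the count of 0 became 6 and 7 with limma voom (lane or litter as a random block), 22 by edgeR over embryos and 7 by a Mann-Whitney test, and 0 to 11 with a lane left out (11 without lane E). In B6 × Cast 4 became 7 with no filter on level and 7 by DESeq2, and 0 to 4 with an embryo left out (0 without replicate 2, 1 without replicate 3, 2 without replicate 6 or 8). In Cast × B6 16 became 11 to 18. For ASE 7 became 2 in F1 embryos alone, 12 by a quasi-binomial fit and 13 with no window. For parental origin 1 became 3 without Cast × B6 replicates 1 and 6. For own genotype 19 became 10 with no principal components and 10 with F1 mothers only. Other shares of all genes under the alternatives are not given here, so these counts are not read as results about the replication genes. The cause of these moves was not tested. No paired analysis was possible because replicate numbers only name embryos and pair none across groups. With a median of 2297773 reads per N2 embryo, genes of a few reads such as *Pcna* and *Rfc4* have wide errors.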
